A study of Saccharomyces cerevisiae with 35 samples.

Results

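The genes described here encode the proteasome of *Saccharomyces cerevisiae* and 4 proteins that work with it. They were chosen by systematic name and are 36 of the 12131 features, and of the 6575 nuclear ORFs, counted in each library: 14 subunits of the 20S core particle, 18 subunits of the 19S regulatory particle, the transcription factor gene *RPN4* (YDL020C), the assembly chaperone gene *UMP1* (YBR173C), the adapter gene *ECM29* (YHL030W) and the polyubiquitin gene *UBI4* (YLL039C). RNA was sequenced from colonies grown for 4 days on solid glucose-rich medium, each library being a pool of several colonies, in 35 libraries of 9 groups. The first batch held disomes of chromosome XV and of chromosome XVI, a strain hemizygous for *DIG1* (*DIG1/dig1*Δ), F45 overexpressing *DIG1*, F45 with an empty plasmid, and F45 itself, with 4 libraries each. The second batch held *flo11*Δ and *cis3*Δ strains with 4 libraries each and F45 with 3.

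F45 is a haploid strain that grows as structured colonies, and every strain carries its genotype: *MAT*a, a deletion of *HO*, an *SPS2-EGFP* fusion and a serine auxotrophy that has not been mapped. Each disome carries 2 copies of 1 chromosome, arose by missegregation so that both copies are identical, and is represented by 1 strain. The hemizygous strain is the XVI disome with 1 copy of *DIG1* (a repressor of filamentous growth genes, on chromosome XVI) replaced by *kanMX4*. The overexpression strain is F45 with *DIG1* on a low-copy plasmid, and the empty plasmid strain is F45 with pRS41K. The strain table lists these plasmids under different names. Any other difference between them cannot be told apart from that of *DIG1*. The *flo11*Δ and *cis3*Δ groups each comprise 2 deletion strains of the same genotype and lack a cell surface flocculin gene and a cell wall protein gene. The comparisons ask whether subunits on a doubled chromosome follow its copy number while the other subunits stay level, and how the whole set differs between the other groups.

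The proteasome degrades proteins tagged with ubiquitin. Its 20S core is a stack of rings of α and β subunits, with the peptide-cutting sites on the inside, and its 19S particle is a base of ATPases that unfolds substrates and a lid that removes the ubiquitin. In yeast, Rpn4 activates the subunit genes through a promoter element called PACE and is itself a substrate of the proteasome. Measurements were whole-colony RNA levels, so fewer cells of a type and less RNA per cell cannot be told apart. No protein was measured.

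The PACE element was common to the promoters of the subunits and rare elsewhere. The letters GGTGGCAAA were searched on both strands of the 300 bases before each start codon, and 27 of 32 subunits held them (84.4%), against 73 of all 6001 protein-coding genes searched (1.22%). They were found before 12 of the 14 core and 15 of the 18 regulatory subunit genes, 19 times in the direction of the gene and 8 times on the opposite strand, and lay 75–174 bases before the start codon (median 111). *UBI4* and *ECM29* also held them, whereas *PRE5*, *PUP1*, *RPN10*, *RPN13*, *RPN8*, *RPN4* and *UMP1* did not. A match is a description of these letters and not a measured binding site. Of the 8 subunit genes on chromosomes XV and XVI, on which the copy number results turn, 6 held it. They are shown here with 30 bases on each side, 5′ to 3′ along the gene and with the element in capitals (RefSeq, build R64), at chrXV:255198-255266 on the plus strand for *PRE6*, chrXV:1018836-1018904 on the minus strand for *PRE10*, chrXV:813782-813850 on the minus strand for *RPT4*, chrXV:544835-544903 on the plus strand for *RPT5*, chrXVI:732164-732232 on the plus strand for *PRE2* and chrXVI:742270-742338 on the plus strand for *RPN7*.
PRE6: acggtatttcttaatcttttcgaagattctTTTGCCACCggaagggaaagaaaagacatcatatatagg
PRE10: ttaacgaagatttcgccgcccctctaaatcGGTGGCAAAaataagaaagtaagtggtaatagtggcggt
RPT4: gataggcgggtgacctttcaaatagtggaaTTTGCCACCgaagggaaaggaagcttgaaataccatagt
RPT5: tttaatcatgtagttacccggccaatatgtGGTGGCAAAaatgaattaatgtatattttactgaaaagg
PRE2: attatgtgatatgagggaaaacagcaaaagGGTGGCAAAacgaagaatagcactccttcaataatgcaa
RPN7: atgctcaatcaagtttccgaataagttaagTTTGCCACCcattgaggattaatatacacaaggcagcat

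*PUP1*, the subunit that departed most from 2 copies in the XV disome against F45, lacked an exact match to these letters. Its 300 bases before the start codon, chrXV:631752-632051 on the minus strand (R64), are shown without capitals, since only exact matches were searched. They hold a stretch that differs from the element only in its first letter, as do those of *PRE5* and *RPN8*. Those of *RPN13* and, on the opposite strand, *RPN10* hold a stretch that differs from the element at a single later letter. Any link between the element and the copy number results was not tested.
PUP1: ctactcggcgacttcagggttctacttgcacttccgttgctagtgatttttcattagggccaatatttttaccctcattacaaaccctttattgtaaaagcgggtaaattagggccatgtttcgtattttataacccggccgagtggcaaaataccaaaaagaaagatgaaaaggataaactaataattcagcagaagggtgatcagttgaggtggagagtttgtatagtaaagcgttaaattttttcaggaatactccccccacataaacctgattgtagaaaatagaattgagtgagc

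Sequencing depth was sufficient for every member. Total counts per library ranged over 6503076–37823857 (first batch, median 12144564) and 11565108–25104790 (second batch, median 16912714), and the empty plasmid libraries were the deepest group. The lowest count of any member was 202 (first batch) or 421 (second batch), so that all 36 members passed the filter on low counts. The members' summed share of the counts was 0.7035–0.8931% (first batch) or 0.5078–0.6646% (second batch). The manipulated genes bore out the labels: *DIG1* averaged 304 CPM in the overexpression strain, 71.18 CPM in the empty plasmid strain, 136.8 CPM in the XVI disome, 60.22 CPM in the hemizygous strain and 68.41 CPM in F45, *FLO11* averaged 4.623 CPM in *flo11*Δ against 19100 CPM in F45, and *CIS3* averaged 0.2763 CPM in *cis3*Δ against 768.7 CPM in F45. CPM are counts scaled to a common total of counts in nuclear ORFs after TMM normalization. Libraries are numbered 1–4 by the number in their column heading. Nothing states that replicates came from separate cultures, and p-values then measure only the spread between these libraries.

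In F45 colonies the core subunits were more abundant than the regulatory subunits per annotated length. The 14 core subunits had a median of 307.9 CPM per kb and the 18 regulatory subunits had 184.7 CPM per kb, a ratio of 1.667. The core genes (597–867 bases) are shorter than most regulatory genes (471–2982 bases), and the part of length in this contrast was not tested. The lowest subunit was *RPN1* (YHR027C), the large base scaffold, at 86.19 ± 2.859 CPM per kb, and the highest was *PUP3*, a core β subunit, at 443.4 ± 17.59 CPM per kb (SD, n = 4). The range was narrow, since 29 of 32 subunits lay within 2-fold of their median of 208.1 CPM per kb. Most neighbours in this order overlapped between libraries. Outside the subunits, *UBI4* was at 1570 ± 89.2 CPM per kb, above *UMP1* at 627.9 ± 33.25 CPM per kb, with *RPN4* at 445 ± 17.12 CPM per kb and *ECM29* far below every other member at 9.305 ± 0.4548 CPM per kb. *RPN4* and *PUP3* overlapped. In the second batch, whose levels were normalized separately and were not tested against the first, the order was led by *UBI4* and *UMP1* again and ended with *RPN2*, *RPN1* and *ECM29*, with medians of 177.5 CPM per kb for core and 94.57 CPM per kb for regulatory subunits.

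**Figure D1:**
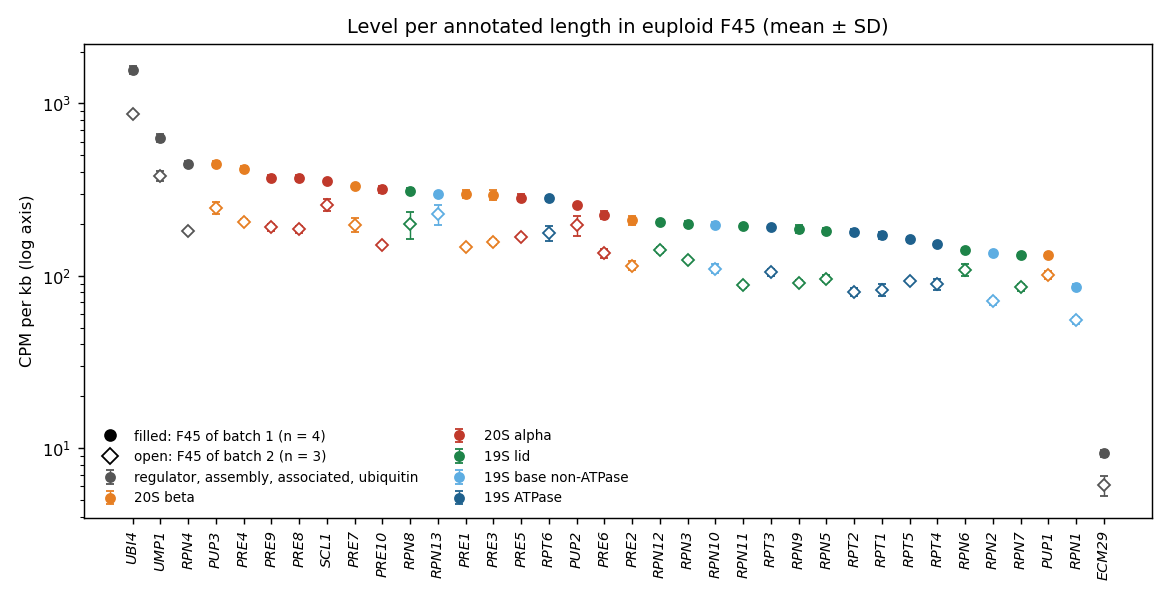
Levels of the 36 members in F45, in CPM per kb of annotated length on a log axis (mean ± SD), ordered by the mean of the first batch. Filled points are the first batch (n = 4) and open points the second (n = 3), which was normalized separately. In the first batch core subunits lie mostly to the high end, regulatory subunits mostly below them, and *ECM29* alone near 9.305 CPM per kb.

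Subunits on a doubled chromosome were raised by about its copy number, in the disomes against F45. In the XV disome, the 6 subunits on chromosome XV were raised by a median of 1.833-fold (1.659 to 2.67-fold), and the 541 tested ORFs of that chromosome by a median of 1.893-fold. In the XVI disome, the 2 subunits on chromosome XVI were raised by a median of 2.026-fold (1.982 to 2.07-fold), and its 472 tested ORFs by 1.981-fold. In the hemizygous strain, which keeps the doubled chromosome XVI, the same 2 subunits were raised by a median of 2.105-fold (1.914 to 2.314-fold), against 1.982-fold for the ORFs. Every library of the doubled strain lay above every F45 library for each of these subunits.

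Among the 2 subunits of chromosome XVI, *PRE2* (YPR103W), which carries the chymotrypsin-like site of the core, had 363.5, 365.9, 354.6 and 358.4 CPM in the XVI disome, against 182.1 ± 10.97 CPM (SD, n = 4) and at most 193.2 CPM in F45. In the hemizygous strain it had 338.3, 358.0, 367.2 and 328.7 CPM. The groups did not overlap, and *PRE2* was higher by 0.99 (log2; SE 0.055) in the XVI disome and by 0.94 (SE 0.055) in the hemizygous strain, with adjusted p values of 4.98e-15 and 1.675e-14 (edgeR's quasi-likelihood test, Benjamini–Hochberg adjustment, n = 4 each). *RPN7* (YPR108W), a lid subunit, had 362.8, 373.0, 337.8 and 342.0 CPM in the XVI disome and 414.6, 391.9, 397.0 and 379.0 CPM in the hemizygous strain, against 171.3, 164.6, 173.5 and 174.9 CPM in F45. Its differences from F45 were 1.05 (log2; SE 0.063) and 1.21 (SE 0.063). In the XV disome, where chromosome XVI is single, *PRE2* and *RPN7* differed from F45 by 0.04 and 0.04 (log2), and neither passed the threshold of an adjusted p of 0.01.

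The 6 subunits of chromosome XV spread more widely. *PUP1* (YOR157C), the core subunit with the trypsin-like site, had 272.1, 249.0, 282.6 and 296.3 CPM in the XV disome, against 106.5, 102.5, 99.96 and 104.0 CPM in F45. *RPT4* (YOR259C), an ATPase of the base, had 403.4, 379.3, 412.9 and 420.2 CPM in the XV disome, against 196.8, 204.7, 205.9 and 194.6 CPM in F45. Against F45 the first was raised by more than 2-fold and the second by almost exactly 2-fold. The core α subunit *PRE6* (YOL038W) had 335.7, 301.0, 314.2 and 347.9 CPM in the XV disome, against 161.6, 171.9, 175.5 and 182.9 CPM in F45. The core α subunit *PRE10* (YOR362C) had 518.5, 457.0, 490.1 and 498.8 CPM in the XV disome, against 292.0, 261.2, 270.1 and 275.4 CPM in F45. These were raised by somewhat less than 2-fold. *RPT5* (YOR117W), another ATPase, had 354.8, 341.6, 343.2 and 365.1 CPM in the XV disome, against 221.2, 214.1, 203.2 and 208.9 CPM in F45. *RPN8* (YOR261C), the lid partner of the deubiquitinase Rpn11, had 504.0, 464.0, 605.4 and 580.3 CPM in the XV disome, against 317.2, 307.2, 333.3 and 312.9 CPM in F45. The estimated differences were 1.42 for *PUP1*, 1.01 for *RPT4*, 0.91 for *PRE6*, 0.84 for *PRE10*, 0.76 for *RPN8* and 0.73 for *RPT5* (log2).

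Departure from 2 copies was tested directly, with the copy number as an offset. In the XV disome *PUP1* lay above 2 copies by 0.42 (log2; SE 0.069, adjusted p = 7.757e-06) and *RPT5* lay below (-0.27; SE 0.048, adjusted p = 2.095e-05, edgeR's quasi-likelihood test with Benjamini–Hochberg adjustment, n = 4 each). These 2 of 6 compare with 60.4% of the ORFs of chromosome XV that departed in either direction. *PRE10* (-0.16, adjusted p = 0.01158), *RPN8* (-0.24, adjusted p = 0.01624), *PRE6* (-0.09, adjusted p = 0.1591) and *RPT4* (0.01, adjusted p = 0.8772) did not pass the threshold. *PRE10* did pass with DESeq2 (adjusted p = 0.001551) and without F45 library 2 (0.008731) or XV disome library 1 (0.006214), and *RPN8* without XV disome library 3 (0.005068). In the XVI disome 0 of 2 subunits departed, against 55.1% of the ORFs of chromosome XVI, with estimates of -0.01 for *PRE2* and 0.05 for *RPN7*, and none had an unadjusted p under 0.05 or was called by DESeq2. In the hemizygous strain 1 of 2 departed, against 63.1% of the ORFs: *RPN7* lay above by 0.21 (adjusted p = 0.004981), a call lost without F45 library 1 or 2 or without hemizygous library 1 or 3 (adjusted p = 0.01139 to 0.02006), while *PRE2* was at -0.06 (adjusted p = 0.3267). With libraries scaled to their total counts, 5 of the 6 subunits of chromosome XV and 0 of the 2 in the hemizygous strain departed. These departures are from F45, and those in the XV disome changed with the reference. Against the XVI disome, *PUP1* (-0.12, adjusted p = 0.1435), *PRE6* (-0.13, adjusted p = 0.04635) and *PRE10* (0.08, adjusted p = 0.2459) did not depart. *RPT4* (-0.30, adjusted p = 2.163e-05), *RPT5* (-0.19, adjusted p = 0.001949) and *RPN8* (-0.49, adjusted p = 1.958e-05) lay below 2 copies there.

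**Figure D2:**
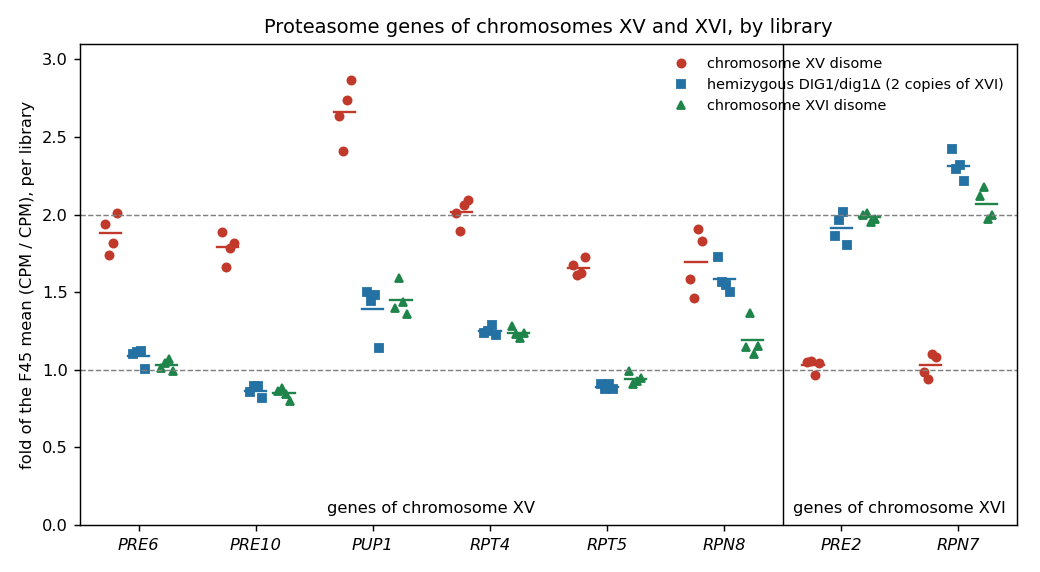
Fold over the F45 mean for the 8 subunits on chromosomes XV and XVI in the XV disome, the hemizygous strain and the XVI disome. Each point is a library, short bars are means, and dashed lines mark the F45 mean and 2-fold. F45 libraries are not drawn. The doubled strains lie near 2-fold for most subunits, with *PUP1* above at 2.67-fold and *RPT5* below at 1.659-fold.

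Subunits of chromosome XV were not all level where that chromosome was single. *PUP1* had 144.5, 164.1, 148.4 and 140.6 CPM in the XVI disome, 155.0, 148.9, 152.7 and 117.9 CPM in the hemizygous strain and 165.1, 173.1, 163.6 and 164.4 CPM in the empty plasmid strain, all above the 99.96–106.5 CPM of F45. It was higher than in F45 by 0.54 (log2; SE 0.070), 0.48 (SE 0.070) and 0.69 (SE 0.069) in these 3 groups. *RPN8* had 547.6, 497.9, 491.3 and 476.9 CPM in the hemizygous strain, a range that overlapped its 464.0–605.4 CPM in the XV disome, although the hemizygous strain has 1 copy of the gene. It was higher in the hemizygous strain than in F45 by 0.66 (SE 0.085, adjusted p = 1.299e-07, edgeR's quasi-likelihood test with Benjamini–Hochberg adjustment, n = 4 each). *RPT4* was higher than in F45 by 0.31 and 0.32 in the XVI disome and the hemizygous strain, and *PRE10* differed by -0.24 and -0.21, the second call being lost without F45 library 1 (adjusted p = 0.01045).

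Outside chromosome XV, the set as a whole was slightly lower in the XV disome than in F45. Of 30 members, 16 were lower and 2 were higher, beside 28.9% of all tested ORFs outside that chromosome that were lower and 28.4% that were higher, and the median difference was -0.18 (log2) for the members and -0.00 for the ORFs. Among the subunits 12 of 26 were lower and 2 were higher. In the single libraries of the XV disome the median subunit stood at 0.8743 to 0.9277 times its F45 mean (0.8997 ± 0.02266, SD, n = 4). The SD across subunits within a library was 0.1761–0.2586 (log2), against 0.6098–0.7356 across ORFs, which include genes with far fewer counts. The lower subunits came from the core (5 of 11) and from the regulatory particle (7 of 15).

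The subunit that fell most in the XV disome was *PRE4*, a core β subunit, with 233.2, 254.7, 215.0 and 224.5 CPM in the XV disome, against 341.0, 348.0, 314.3 and 332.3 CPM in F45. The difference was -0.53 (log2; SE 0.057, adjusted p = 4.431e-09, edgeR's quasi-likelihood test with Benjamini–Hochberg adjustment, n = 4 each). *RPN2*, a base scaffold, followed at -0.45 (SE 0.059) and the ubiquitin receptor gene *RPN10* at -0.44 (SE 0.062). The 2 that rose were *RPN6*, a lid subunit that clamps base and core together, and the ATPase *RPT2*. *RPN6* had 228.2, 217.6, 247.6 and 256.4 CPM in the XV disome, against 178.8, 179.5, 188.6 and 186.3 CPM in F45, a difference of 0.37 (SE 0.057). *RPT2* differed by 0.20 (SE 0.052), and for both genes the groups did not overlap. With libraries scaled to total counts 1 member was higher in place of 2.

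The 4 other members were all lower in both disomes and in the hemizygous strain than in F45, with no overlap between libraries. *UBI4*, which supplies ubiquitin under stress, had 1153, 904.3, 780.3 and 676.5 CPM in the XV disome, 884.3, 986.6, 1009 and 873.9 CPM in the hemizygous strain and 1011, 881.6, 864.9 and 813.2 CPM in the XVI disome, against 1916, 1846, 1748 and 1685 CPM in F45. *RPN4* had 602.5, 570.0, 489.1 and 372.9 CPM in the XV disome, 457.9, 463.3, 461.6 and 481.7 CPM in the hemizygous strain and 443.1, 372.3, 390.7 and 364.3 CPM in the XVI disome, against 738.9, 693.1, 727.3 and 681.4 CPM in F45. *UBI4* was thus lower by about 2-fold in all 3, and *RPN4* varied most within the XV disome. *UMP1* had 213.0, 196.7, 166.2 and 175.3 CPM in the XV disome, 171.5, 199.9, 191.7 and 188.2 CPM in the hemizygous strain and 211.2, 183.0, 205.7 and 191.2 CPM in the XVI disome, against 283.7, 297.4, 261.3 and 280.4 CPM in F45. *ECM29* had 40.86, 39.45, 43.67 and 45.62 CPM in the XV disome, 32.49, 39.01, 39.88 and 35.91 CPM in the hemizygous strain and 44.09, 37.76, 43.33 and 47.32 CPM in the XVI disome, against 55.98, 51.15, 50.61 and 50.95 CPM in F45. The 3 comparisons share the F45 libraries.

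For *RPN4* the difference from F45 was -0.48 (log2; SE 0.10, adjusted p = 0.0002075) in the XV disome, -0.61 (SE 0.10, adjusted p = 1.282e-05) in the hemizygous strain and -0.85 (SE 0.10, adjusted p = 6.67e-08) in the XVI disome (edgeR's quasi-likelihood test, Benjamini–Hochberg adjustment, n = 4 each). For *UBI4* the 3 differences were -1.03 (SE 0.11), -0.94 (SE 0.11) and -1.01 (SE 0.11). For *UMP1* they were -0.58 (SE 0.078), -0.58 (SE 0.078) and -0.50 (SE 0.077). For *ECM29* they were -0.29 (SE 0.070), -0.50 (SE 0.072) and -0.28 (SE 0.069). *UBI4* shares sequence with other ubiquitin genes and reads were not filtered on mapping quality, so its counts are uncertain. These 4 genes fell further than the median subunit in each of the 3 strains. Lower levels were not confined to strains with a doubled chromosome. In the empty plasmid strain, *UMP1* (-0.26) and *ECM29* (-0.23) were also called lower than in F45, calls lost when some single libraries were left out. *UBI4* (-0.32) and *RPN4* (0.115) did not pass the threshold there.

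**Figure D3:**
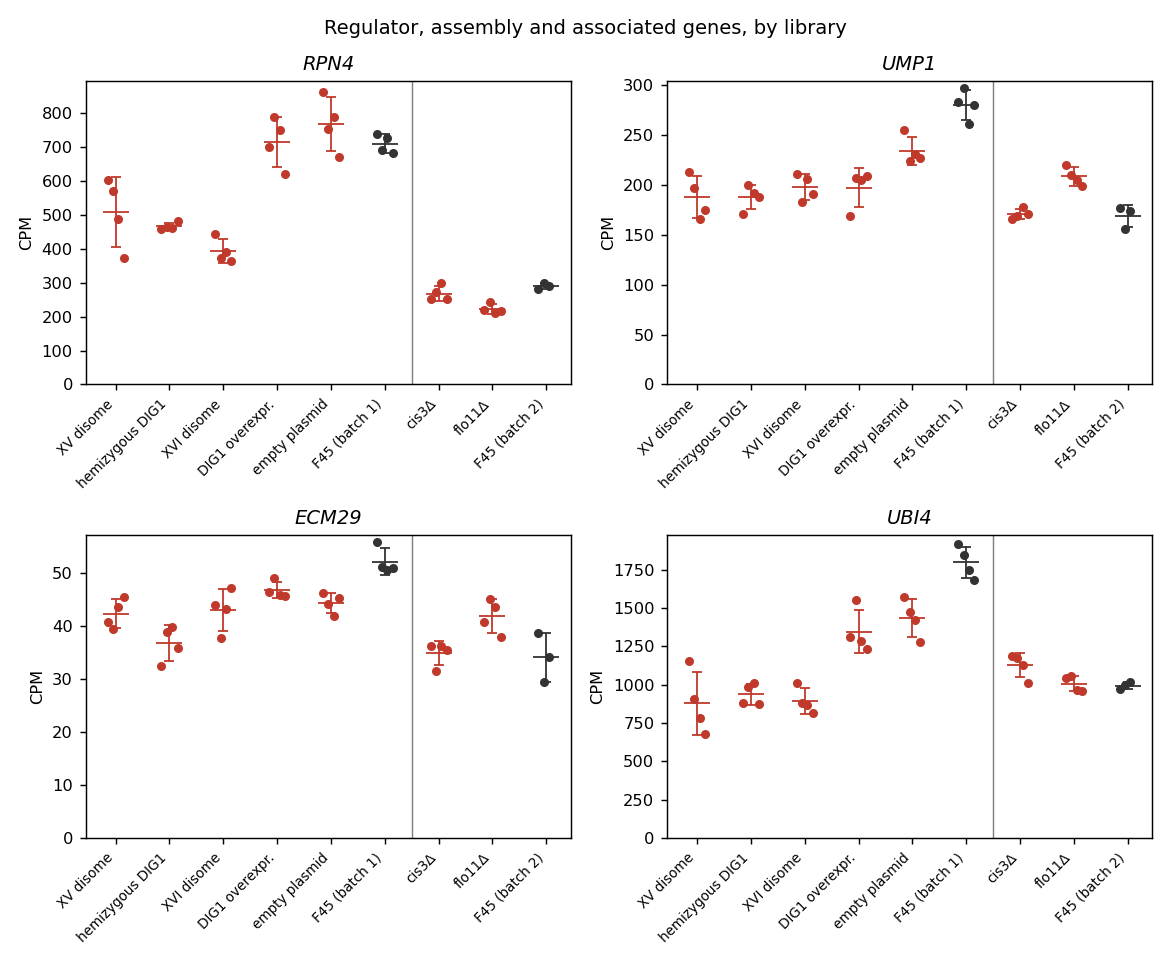
Levels in CPM of *RPN4*, *UMP1*, *ECM29* and *UBI4* in all 35 libraries, a point for each library, with the batches in separate groups because they were normalized separately. All 3 strains with a doubled chromosome lie below F45 of the first batch for each gene. *UMP1* and *ECM29* were also called lower in the empty plasmid strain than in F45.

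In the XVI disome the members outside chromosome XVI included genes called in both directions. Of 34, 10 were lower and 5 were higher than in F45, beside 24.9% of the ORFs that were lower and 27.0% that were higher, with medians of -0.09 (log2) and 0.03. With libraries scaled to total counts 19 were lower and 3 were higher. The core accounted for 5 of the 6 lower subunits. The lid subunit *RPN9* fell most, with 168.7, 159.3, 155.4 and 160.6 CPM in the XVI disome, against 233.4, 226.1, 207.4 and 219.4 CPM in F45 (-0.46, SE 0.057, adjusted p = 7.558e-08, edgeR's quasi-likelihood test with Benjamini–Hochberg adjustment, n = 4 each). *PUP1* (0.54), *RPN6* (0.36), *RPT4* (0.31), the ubiquitin receptor *RPN13* (0.28) and the ATPase *RPT6* (0.20) were the 5 that rose. *RPN6* had 224.3, 249.5, 242.0 and 226.3 CPM in the XVI disome, above all F45 libraries. *RPT4* had 257.0, 247.0, 240.8 and 248.4 CPM in the XVI disome, also above its 194.6–205.9 CPM in F45. Only 3 members were called higher without F45 library 1, without F45 library 4 or without XVI disome library 2.

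Set directly against each other, the disomes differed at the subunits of both chromosomes and at a smaller set elsewhere. The 6 subunits of chromosome XV were higher in the XV disome by 1.421 to 2.109-fold (median 1.791-fold, ORFs 1.978-fold), and the 2 of chromosome XVI stood at a median of 0.5081 times their level in the XVI disome (ORFs 0.5099). Of the 28 members on other chromosomes 9 were lower in the XV disome and 3 were higher, beside 21.9% and 22.2% of the ORFs. The lower ones were led by *RPN2*, with 276.8, 276.0, 271.8 and 293.1 CPM in the XV disome, against 370.5, 345.7, 376.3 and 380.4 CPM in the XVI disome (-0.40, SE 0.059, adjusted p = 1.403e-06, edgeR's quasi-likelihood test with Benjamini–Hochberg adjustment, n = 4 each). *RPT6*, with 325.2, 300.8, 323.4 and 316.9 CPM in the XV disome, against 395.7, 419.8, 371.9 and 381.4 CPM in the XVI disome, differed by -0.31 (SE 0.060). *RPN1*, with 206.9, 203.5, 195.1 and 200.9 CPM in the XV disome, against 244.3, 222.2, 253.5 and 243.9 CPM in the XVI disome, differed by -0.26 (SE 0.055). None of the 3 overlapped, and 7 of the 9 belonged to the regulatory particle. The higher ones were *RPN4* (0.37, SE 0.10), *PRE3*, which carries the caspase-like site of the core (0.24, SE 0.058), and *RPN9* (0.19, SE 0.057). *PRE3* had 209.3, 199.0, 206.5 and 228.6 CPM in the XV disome, against 179.6, 187.8, 169.0 and 179.9 CPM in the XVI disome. *RPN9* had 176.7, 183.1, 185.1 and 189.9 CPM in the XV disome, against 168.7, 159.3, 155.4 and 160.6 CPM in the XVI disome. Neither pair overlapped. The *RPN4* groups did, since library 4 of the XV disome was at 372.9 CPM, and its call was lost without XVI disome library 2 or 4 or XV disome library 1 or 2 (adjusted p = 0.01177 to 0.02463). Without XVI disome library 4 the count of higher members was 1, and in a fit to these 2 groups alone it was 0.

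Between the hemizygous strain and the XVI disome few members were called. Of 36, 5 were higher in the hemizygous strain and 0 were lower, beside 12.0% of the ORFs that were higher and 13.5% that were lower, so that the count of higher members was close to the share over all ORFs. At an unadjusted p under 0.05, 13 were higher and 4 were lower, and DESeq2 called 9 higher and 2 lower. *RPN8* had 547.6, 497.9, 491.3 and 476.9 CPM in the hemizygous strain, against 365.2, 434.7, 349.2 and 366.6 CPM in the XVI disome (0.41, SE 0.084, adjusted p = 0.00048, edgeR's quasi-likelihood test with Benjamini–Hochberg adjustment, n = 4 each). *RPN13* had 241.7, 229.9, 215.6 and 213.5 CPM in the hemizygous strain, against 158.5, 205.2, 158.5 and 163.6 CPM in the XVI disome (0.39, SE 0.087). *RPT6* had 481.9, 505.3, 467.5 and 470.9 CPM in the hemizygous strain, against 395.7, 419.8, 371.9 and 381.4 CPM in the XVI disome (0.30, SE 0.060). No pair of groups overlapped for these 3 genes or for *RPN5* (0.27) and *SCL1* (0.21), the other members that rose. The count of lower members was 1 without hemizygous library 2 or XVI disome library 2.

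Relative to F45, the hemizygous strain combined both patterns. Of 34 members outside chromosome XVI, 15 were lower and 10 were higher, beside 29.1% and 28.7% of the ORFs, and the median was -0.05 (log2). *RPN13* (0.68, SE 0.088), *RPN8* (0.66, SE 0.085) and *RPT6* (0.49, SE 0.060) led the higher members. In F45 *RPN13* had 145.6, 138.3, 139.5 and 141.0 CPM and *RPT6* had 334.9, 350.0, 353.8 and 330.9 CPM, all below the hemizygous values given above. The core subunits *PRE8* (-0.41, SE 0.060) and *PRE7* (-0.36, SE 0.052) and the lid subunit *RPN9* (-0.47, SE 0.057) were the lowest subunits. *PRE8* had 208.2, 224.2, 214.4 and 191.8 CPM in the hemizygous strain, against 284.4, 290.0, 262.4 and 279.4 CPM in F45. The within-library SD across 30 subunits was 0.3062–0.3703 (log2). The lower range in the XV disome against F45, 0.1761–0.2586, was over 26 subunits without those of chromosome XV. The sets are unlike, and the 2 ranges cannot be compared directly.

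**Figure D4:**
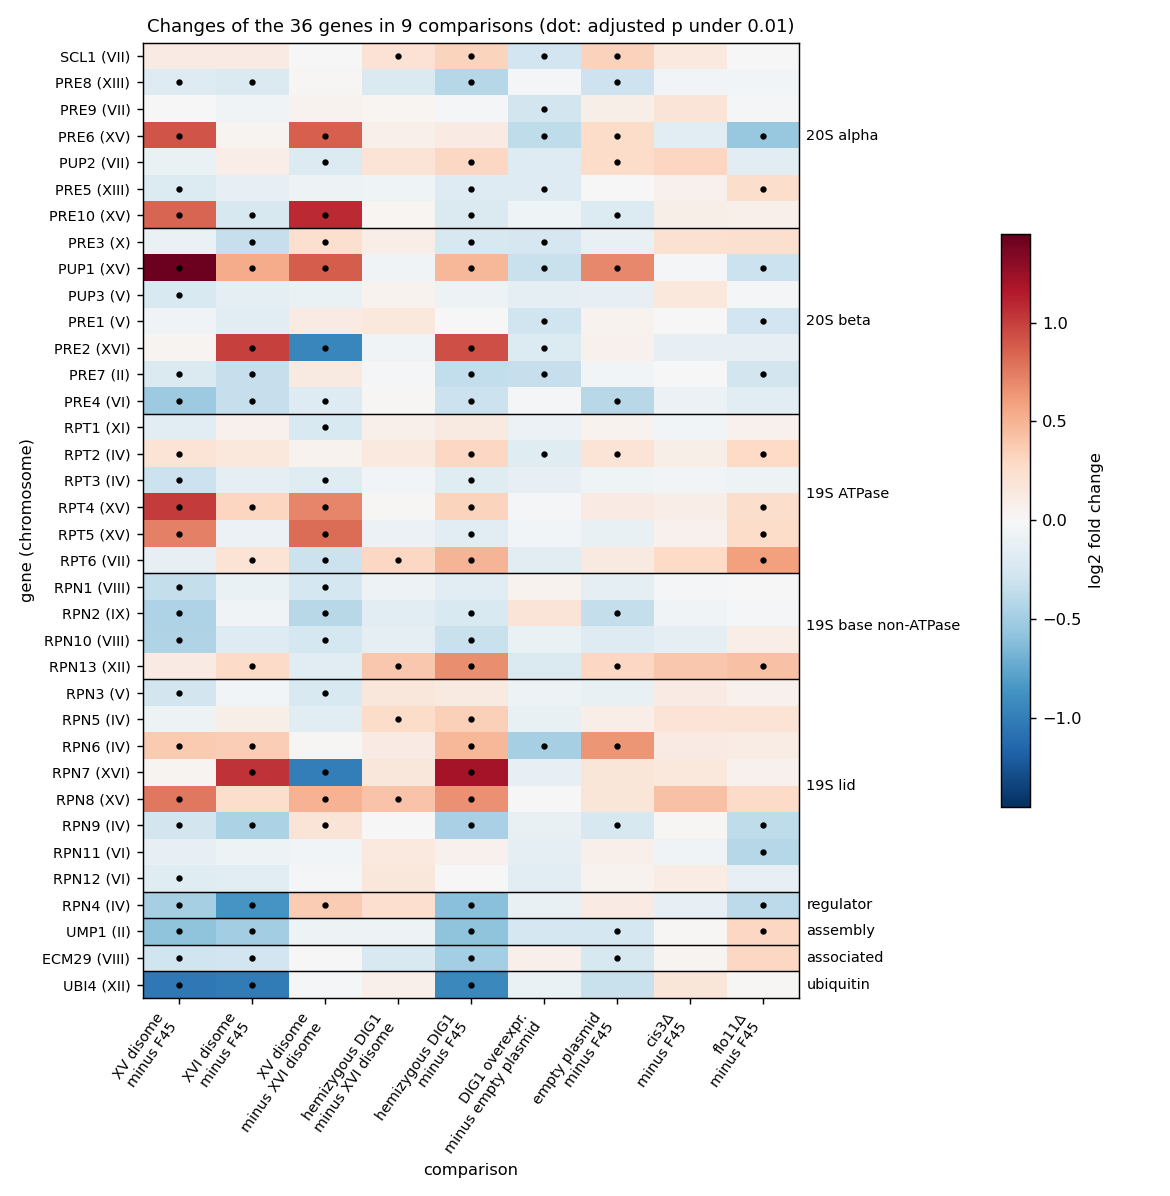
Difference from the reference group (log2, colour) of each of the 36 members in the 9 comparisons, with marks for members at an adjusted p under 0.01. The subunits of chromosomes XV and XVI stand out where the copy number differs, and the *cis3*Δ comparison has no mark.

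Core subunit RNA was lower with *DIG1* overexpressed than with the empty plasmid. Of 36 members 11 were lower and 0 were higher, beside 16.4% and 16.0% of the ORFs, with medians of -0.12 (log2) for the members and -0.02 for the ORFs. At an unadjusted p under 0.05, 19 were lower and 1 was higher, and DESeq2 called 1 higher. Of the 14 core subunits 9 were lower (median -0.22), against 2 of the 18 regulatory subunits (median -0.11), a difference between the particles that was not tested. *RPN6* had 210.4, 211.9, 202.8 and 193.9 CPM in the overexpression strain, against 282.8, 280.5, 301.0 and 277.4 CPM in the empty plasmid strain (-0.48, SE 0.057, adjusted p = 1.259e-07, edgeR's quasi-likelihood test with Benjamini–Hochberg adjustment, n = 4 each). *PRE6* had 164.9, 157.7, 166.7 and 155.6 CPM in the overexpression strain, against 210.4, 198.4, 211.6 and 212.1 CPM in the empty plasmid strain (-0.37, SE 0.056). The core subunit *PRE7* had 182.4, 189.3, 186.4 and 178.2 CPM in the overexpression strain, against 225.7, 224.3, 237.9 and 240.3 CPM in the empty plasmid strain (-0.33, SE 0.051). In each of these, and in the other 8 lower members, every overexpression library lay below every empty plasmid library. *RPN4* (-0.10, adjusted p = 0.4492), *UMP1* (-0.25, adjusted p = 0.01078), *ECM29* (0.08, adjusted p = 0.3856) and *UBI4* (-0.09, adjusted p = 0.5282) did not pass the threshold, although *UMP1* did with DESeq2 (0.006646), the likelihood ratio test (0.007109) and libraries scaled to total counts (0.009592).

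Shorter members were lower than longer ones in this comparison. Spearman's rho between length and log2 difference was 0.6171 over the 36 members and 0.3043 over 5923 ORFs, whose values share the same 8 libraries, and in the other 8 comparisons it was -0.26 to 0.1476 over the members. The part of length in the result was not tested. The 14 core subunits were 597–867 bases long, while the shortest members, *UMP1* and *RPN13*, had 447 and 471 bases. The call for *PRE2* (-0.20) was lost without overexpression library 1 or 3 or empty plasmid library 1 or 3 (adjusted p = 0.01352 to 0.02721), and 1 member was called higher without overexpression library 3.

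**Figure D5:**
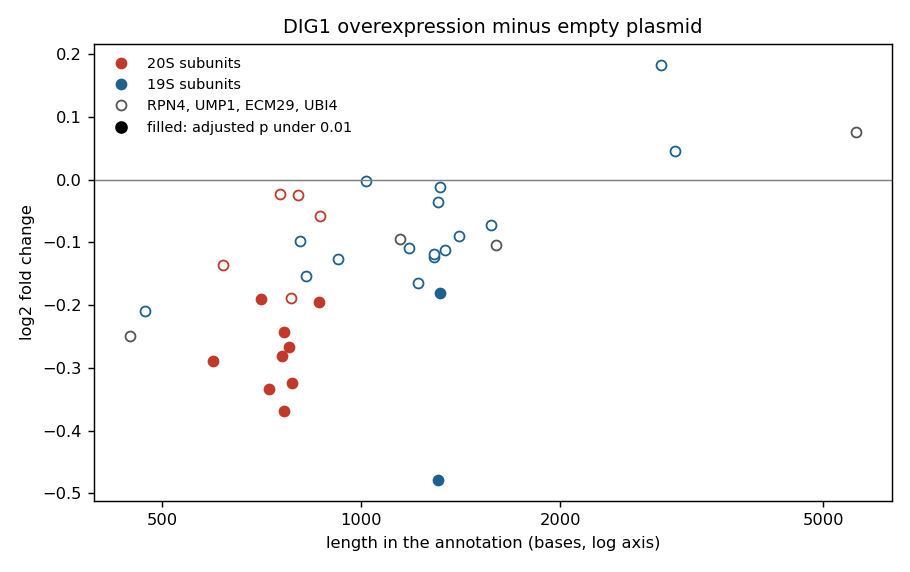
Difference between *DIG1* overexpression and empty plasmid (log2) of each member against its annotated length (log axis, bases), coloured by particle. The core subunits have a median of -0.22 and the regulatory subunits one of -0.11, with overlapping ranges and *RPN6* lowest at -0.48.

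The empty plasmid strain itself differed from F45. Of 36 members 7 were higher and 7 were lower, beside 24.3% and 23.5% of the ORFs, with a median of 0.05 (log2). *PUP1* rose most (0.69, SE 0.069), followed by *RPN6* (0.64, SE 0.057) and the core subunit *SCL1* (0.34, SE 0.050). *RPN6* had 282.8, 280.5, 301.0 and 277.4 CPM in the empty plasmid strain, against 178.8, 179.5, 188.6 and 186.3 CPM in F45. *PRE4* (-0.40, SE 0.056), *RPN2* (-0.35, SE 0.058) and *PRE8* (-0.30, SE 0.059) were the lowest. *PRE4* had 256.9, 251.3, 249.4 and 251.4 CPM in the empty plasmid strain, below all F45 libraries. *RPN2* had 294.9–308.1 CPM in the empty plasmid strain, against 387.7, 394.9, 371.8 and 374.2 CPM in F45. *SCL1* had 337.8, 334.5, 349.0 and 335.0 CPM in the empty plasmid strain, against 262.9, 272.1, 266.7 and 271.6 CPM in F45. The groups overlapped for none of these genes. Without F45 library 1 or without empty plasmid library 2 the count of lower members was 4, and the calls for *PRE10*, *UMP1* and *ECM29* were among those lost.

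Deletion of *CIS3* left the set without a called member. Of 36 members 0 were higher and 0 were lower in *cis3*Δ than in F45, beside 0.185% and 0.236% of the ORFs, while 9 were higher and 1 was lower at an unadjusted p under 0.05, and DESeq2 called 1 higher, *RPN8*. *RPN8* had 301.8, 300.8, 260.3 and 228.8 CPM in *cis3*Δ, against 187.4, 244.2 and 176.3 CPM in F45, and the groups overlapped. It was called higher by edgeR only without F45 library 2 (0.58, adjusted p = 0.008711, n = 4 and 2).

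In *flo11*Δ, 7 of 36 members were higher and 7 were lower than in F45, beside 14.8% and 15.5% of the ORFs, with a median of 0.01 (log2). *RPT6* had 339.0, 319.0, 315.6 and 326.8 CPM in *flo11*Δ, against 215.0, 237.9 and 194.9 CPM in F45 (0.59, SE 0.096, adjusted p = 0.0003448, edgeR's quasi-likelihood test with Benjamini–Hochberg adjustment, n = 4 and 3). It was 1 of 4 ATPases of the base that rose, of 6, with a median of 0.26 over the 6. Of these 4, *RPT4* lost its call under TMM over all features, the replicate block, the fit to the 2 groups alone, 5 of the 7 fits without 1 library (*flo11*Δ library 1, 2 or 4 or F45 library 2 or 3) and each deletion strain alone, and *RPT5* lost it without F45 library 2 or 3 and with each deletion strain alone. *RPN13* had 141.9, 137.8, 143.4 and 152.3 CPM in *flo11*Δ, against 98.33, 123.6 and 99.39 CPM in F45 (0.43, SE 0.11), and *UMP1* had 220.7, 210.3, 205.3 and 199.0 CPM in *flo11*Δ, against 176.9, 156.1 and 174.1 CPM in F45 (0.30, SE 0.067). *PRE6* had 71.44, 72.31, 72.11 and 66.78 CPM in *flo11*Δ, against 102.9, 110.2 and 97.95 CPM in F45 (-0.55, SE 0.078, adjusted p = 0.0001237, edgeR's quasi-likelihood test with Benjamini–Hochberg adjustment, n = 4 and 3).

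The deubiquitinase *RPN11* had 64.70, 63.54, 60.30 and 54.41 CPM in *flo11*Δ, against 84.23, 79.49 and 79.11 CPM in F45 (-0.42, SE 0.071). *RPN4* had 220.5, 243.9, 211.2 and 216.2 CPM in *flo11*Δ, against 280.8, 299.3 and 291.8 CPM in F45 (-0.38, SE 0.079, adjusted p = 0.001772, edgeR's quasi-likelihood test with Benjamini–Hochberg adjustment, n = 4 and 3). For all of these genes the groups did not overlap. *ECM29* (0.30, adjusted p = 0.0246) and *UBI4* (0.02, adjusted p = 0.8872) did not pass. With *flo11*Δ strain 1 alone 1 member was higher and 1 lower, and with strain 2 alone 2 were higher and 4 lower. The count of higher members was 4 without F45 library 2 and 2 without F45 library 3, and that of lower members was 4 without *flo11*Δ library 1, 2 or 4. The call for *RPN13* was lost without F45 library 1 or 3 or any single *flo11*Δ library, and that for *UMP1* without F45 library 2 (adjusted p = 0.01907). Both were also lost with each deletion strain alone (adjusted p = 0.01189 to 0.06959). With strain 1 alone the calls for *RPN4* (adjusted p = 0.0405) and *RPN11* (adjusted p = 0.01325) were lost.

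Markers of both mating types were measured, and several moved with these comparisons. Summed over the a-cell genes *MFA1*, *MFA2*, *STE2* and *BAR1*, levels were 166.2–187.8 CPM in the XV disome, 236.3–277.3 CPM in the hemizygous strain, 208.1–271.3 CPM in the XVI disome and 557.5–627.4 CPM in F45. They were 312.9–444.3 CPM in the overexpression strain, against 747.5–819.5 CPM in the empty plasmid strain. In the second batch they were 430.6–495.3 CPM in *flo11*Δ and 511.4–555.5 CPM in *cis3*Δ, against 617.2–728.9 CPM in F45. All 4 genes were lower in both disomes and in the hemizygous strain than in F45, and in the overexpression strain than in the empty plasmid strain. The empty plasmid strain itself differed from F45. *MFA1* (0.57), *MFA2* (0.62) and *BAR1* (0.39) were higher there (log2) and the α-cell gene *SAG1* (-0.37) was lower. Of the 4 α-cell genes, the defining pheromone genes *MF(ALPHA)1* and *MF(ALPHA)2* had group means of 0.6592–3.453 CPM and 0.3837–0.8096 CPM, and *STE3* and *SAG1* had 10.38–34.98 CPM and 47.12–93.83 CPM. The summed α-cell levels were 68.78–78.77 CPM in the XV disome, 85.88–102.9 CPM in the hemizygous strain and 92.71–103.7 CPM in the XVI disome, against 85.57–95.57 CPM in F45. They were 61.71–80.87 CPM in the overexpression strain, against 80.1–85.03 CPM in the empty plasmid strain, and 119.1–142.5 CPM in *flo11*Δ and 91.36–116.1 CPM in *cis3*Δ, against 100.1–114.3 CPM in F45 of the second batch. *MF(ALPHA)1* and *STE3* were lower in the XV disome than in F45 and with *DIG1* overexpressed than with the empty plasmid, and *SAG1* was higher in *flo11*Δ than in F45. Sporulation genes, 5 in number, were measured too. *SPS4*, on chromosome XV, was lower than in F45 in the XVI disome (-0.93) and *flo11*Δ (-0.79). It was also lower with *DIG1* overexpressed than with the empty plasmid (-1.19). It was higher than in F45 in the XV disome (1.52) and the empty plasmid strain (0.95). *DIT1* was lower than in F45 in the XV disome (-1.11) and the empty plasmid strain (-0.43), as was *SMK1* in the latter (-1.49). *SPO11* and *NDT80* were not called. The part of these shifts in the results for the proteasome genes was not tested.

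The wider pathway was described by 35 further genes: assembly chaperones, caps and bound enzymes, regulators of *RPN4*, shuttles, and enzymes and genes that supply ubiquitin. In the XV disome 8 of 35 were higher and 15 were lower than in F45, beside 28.4% and 28.9% of the ORFs. *BLM10*, an alternative cap of the core, had 74.28, 77.28, 72.56 and 72.07 CPM in the XV disome, against 132.0, 127.5, 120.1 and 133.0 CPM in F45 (-0.79, SE 0.071, adjusted p = 1.372e-10, edgeR's quasi-likelihood test with Benjamini–Hochberg adjustment, n = 4 each). *UBC5*, a ubiquitin-conjugating enzyme, differed by -0.95 (SE 0.082). The ubiquitin–ribosomal fusion gene *RPS31* (0.98, SE 0.099) and the core assembly chaperone *ADD66* (0.89, SE 0.063) rose most. Counts of *RPS31* are uncertain for the same reason as those of *UBI4*.

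In the XVI disome 5 of the 34 pathway genes outside chromosome XVI were higher and 18 were lower than in F45, beside 27.0% and 24.9% of the ORFs, with *ADD66* (0.51) and *RPS31* (0.41) the highest and *BLM10* (-0.76) and *UBC5* (-0.58) the lowest. The chaperone gene *POC4*, which lies on chromosome XVI, was higher there by 1.23 (SE 0.069). In the hemizygous strain 8 of 34 were higher and 17 were lower than in F45, beside 28.7% and 29.1% of the ORFs, led by *SEM1*, a small lid subunit outside the 36 members (0.86), and the base chaperone *HSM3* (0.56), with *BLM10* (-0.9957) and the shuttle *DSK2* (-0.70) the lowest. Between the disomes 8 of 34 were higher and 8 were lower in the XV disome than in the XVI disome, close to the 22.2% and 21.9% of the ORFs, with *RPS31* (0.57) and *UBC4* (0.55) at one end and the ubiquitin-activating enzyme *UBA1* (-0.43) and *UBC5* (-0.38) at the other. Between the hemizygous strain and the XVI disome 3 of 35 were higher, led by *SEM1* (0.47) and *RPN14* (0.40), and 3 were lower, led by the shuttle *RAD23* (-0.31) and the ubiquitin ligase *UBR1* (-0.25), beside 12.0% and 13.5% of the ORFs.

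With *DIG1* overexpressed 0 of 35 pathway genes were higher and 8 were lower than with the empty plasmid, beside 16.0% and 16.4% of the ORFs, led by *SEM1* (-0.46) and the conjugating enzyme *UBC4* (-0.44). In the empty plasmid strain 7 were higher and 8 were lower than in F45, close to the 24.3% and 23.5% of the ORFs, with *ADD66* (0.82) and *SEM1* (0.66) rising most and *BLM10* (-0.54) falling most. In *flo11*Δ 5 were higher, led by *DSK2* (0.54) and the segregase *CDC48* (0.41), and 5 were lower, led by *MUB1* (-0.67) and *RAD6* (-0.58), which take part in the turnover of Rpn4 or in ubiquitin conjugation, and both counts were close to the 14.8% and 15.5% of the ORFs. In *cis3*Δ 0 were called in either direction, beside 0.185% and 0.236% of the ORFs.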

How the data were processed

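RNA-seq of 35 libraries in 9 groups was analysed from the raw counts of read pairs per feature that the authors deposited, 1 table per batch, made with Bowtie2 2.1.0 and featureCounts 1.4.0 with strand taken into account and mapping quality not filtered. The deposited counts are whole numbers without normalization, and only part of the read pairs of genes with shared sequence can be placed with certainty. The members and the gene lists were chosen with earlier results of these data known. Columns of the first batch were tied to groups through the strain codes in their headings and the study's strain list.

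Each batch had its own fit (edgeR 4.0.16, limma 3.58.1, R 4.3.3): filterByExpr kept 8097 and 8059 of 12131 features, TMM factors and library sizes came from nuclear ORFs (in the first batch outside chromosomes XV and XVI), and glmQLFit and glmQLFTest were run over all groups of a batch with Benjamini–Hochberg adjustment over all tested features and a threshold of 0.01. No copy adjustment was made, except in a second fit with an offset of 2 copies. CPM are counts divided by the scaled ORF library size. Total counts per library were 6503076–37823857, and precision is limited by 3 or 4 libraries a group. The procedure was tested on simulated data. Library 1 of the XV disome and library 1 of F45, and so on, deviated together in all 4 pairs (correlation 0.223 to 0.2571), though what the heading number marks is not stated. A replicate block changed no call of a named member in that comparison. Over all ORFs outside chromosome XV it gave 1540 higher and 1577 lower, against 1526 and 1556 without it. Values are given in every library for the 8 subunits of chromosomes XV and XVI and the 4 nonsubunit members, and by rule for up to 3 members with the largest change each way in a comparison, and up to 2 pathway genes. Some of these are given by estimate only. Promoters are the 300 bases before the start codon of RefSeq genes in build R64. Alternatives were DESeq2 1.42.0, the likelihood ratio test, other scalings, filters and samples, a replicate block, leaving out each library and, chosen after seeing the data, each deletion strain alone.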

Additional observations from a re-analysis of the deposited data

Results flagged for a closer look

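Of 168 sets of 4 libraries tested for 21 named members, 12 had 1 library far from the other 3, where chance gives about 5%. The sets share libraries and are not independent, and whether 12 exceeds that share was not tested. *UMP1* was at 168.7 CPM in *DIG1* overexpression library 1, against 205.2–209.2 CPM in the other 3. *ECM29* was at 55.98 CPM in F45 library 1 of the first batch, against 50.61–51.15 CPM, and at 31.63 CPM in *cis3*Δ library 2, against 35.6–36.31 CPM. *PRE6* was at 198.4 CPM in empty plasmid library 2, against 210.4–212.1 CPM, and at 66.78 CPM in *flo11*Δ library 4, against 71.44–72.31 CPM. *PUP1* was at 117.9 CPM in hemizygous library 4, against 148.9–155 CPM, and at 173.1 CPM in empty plasmid library 2, against 163.6–165.1 CPM. *PRE2* was at 176.1 CPM in XV disome library 3, against 190–191.6 CPM, and *RPT5* was at 155.5 CPM in *flo11*Δ library 2, against 142.5–144.3 CPM. *RPN13* was at 205.2 CPM in XVI disome library 2, against 158.5–163.6 CPM. *SCL1* was at 309.1 CPM in hemizygous library 4, against 341.8–347.8 CPM, and *PRE8* was at 204.7 CPM in *DIG1* overexpression library 1, against 227.4–231.3 CPM.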

How the results depend on the processing

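Each disome is 1 strain and each group has 3 or 4 libraries, so effects of a strain and of its karyotype cannot be told apart. The cause of the shifts below was not tested. Medians here are log2 differences of the members outside chromosomes XV and XVI. In the hemizygous strain against the XVI disome, 1 member was lower under the likelihood ratio test, TMM over all features, TMM factors on total counts, the 1 CPM filter and the replicate block, against 0. DESeq2 called 8 members higher in the XVI disome than in F45, 9 higher and 2 lower in the hemizygous strain than in the XVI disome, 1 higher under *DIG1* overexpression and 1 higher in *cis3*Δ. TMM over all features gave 1 higher under *DIG1* overexpression and 4 lower in the empty plasmid strain than in F45. Scaling to total counts gave 1 higher in the XV disome (median -0.2765, reported fit -0.19), 3 higher and 19 lower in the XVI disome (median -0.2057, reported -0.124), a median of -0.2051 in the hemizygous strain against F45 (reported -0.1212), and 5 departures from 2 copies in the XV disome and 0 in the hemizygous strain. Centring on the median ORF gave 1 higher under *DIG1* overexpression, a median of 0.0875 in *cis3*Δ (reported 0.04993), and 4 lower with a median of 0.05162 in *flo11*Δ (reported -0.003761). Fitting only the 2 groups compared gave 0 higher in the XV disome than in the XVI disome and a median of -0.02112 in *flo11*Δ. A single deletion strain gave for *flo11*Δ 1 higher and 1 lower with a median of 0.03149 (strain 1) or 2 higher and 4 lower (strain 2), and for *cis3*Δ 1 higher (strain 1). Leaving out 1 library gave 3–6 higher in the XVI disome, 4–8 lower in the empty plasmid strain, 0–1 departures in the hemizygous strain, 0–1 lower in the hemizygous strain than in the XVI disome, 0–1 higher under *DIG1* overexpression, 1–3 higher between the disomes, 2–7 higher and 4–6 lower in *flo11*Δ (median -0.02015 to 0.01582) and 0–1 higher in *cis3*Δ. With the replicate block, *UBI4* passed in the empty plasmid strain (-0.33, adjusted p = 0.003486) and *RPT4* was lost in *flo11*Δ (0.25, adjusted p = 0.01133), and no other named member changed its call. Only in the XV disome and F45 did libraries of the same number deviate together in every pair. No named member that was called turned its direction under any alternative run.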
